A study of Mus musculus with 160 samples.

Results

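The genes described here are 9 Wnt target genes of the intestinal crypt, Lgr5, Ascl2, Axin2, Smoc2, Rnf43, Znrf3, Sox9, Lrig1 and Myc, taken by name from the 39179 genes of the count files. They were followed in RNA sequenced from the distal 2 cm of the colon in 160 samples of mice from 4 lines, each with homozygous knockouts (HO) and wild-type controls (WT). The study used these lines to ask whether loss of Nckap1l, Dock2, Gpsm3 or Dok3 alters colitis caused by dextran sulfate sodium (DSS), a polymer in drinking water that injures the colonic epithelium. Which samples came from mice given DSS is not stated in the sources used here, so injured and uninjured colons were analysed together and each sample was placed by its own level of inflammation genes.

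The HEM1 line carries the Nckap1l knockout (16 HO and 15 WT samples), DOCK2 the Dock2 knockout (18 and 24), GPSM3 the Gpsm3 knockout (20 and 20) and Dok3 the Dok3 knockout (26 and 21). Mice were 8 to 10 weeks old and came from heterozygous parents, so that litters held both genotypes. The labels give the strain as C57BL6/J in HEM1, DOCK2 and GPSM3 and as 129 in Dok3. All samples of GPSM3 and Dok3 were labelled male, whereas HEM1 held 12 and DOCK2 20 from females. Those animals of each line that received DSS drank it for 5 days, at 2.8% in HEM1, at 3% in DOCK2 and GPSM3, and at 3.5% in Dok3 after a round at 3%. Tissue was taken on day 12 in HEM1 and on day 10 in the other lines. DOCK2 and GPSM3 thus shared strain, dose and harvest day, but differed in cohort and in the sexes held. HEM1 cannot be told apart from its dose, harvest day and cohort, nor Dok3 from its dose, strain and cohort.

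Colonic epithelium is renewed from stem cells at the crypt base. Wnt ligands bind Frizzled and LRP receptors there, beta-catenin builds up, and with TCF/LEF factors it switches on target genes. R-spondins bind LGR receptors and remove the ubiquitin ligases RNF43 and ZNRF3, which otherwise clear Frizzled from the cell surface, so that the signal is strengthened near the cells that make R-spondin. In whole tissue, fewer crypt base cells and less RNA per cell cannot be told apart.

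Promoter sequence is shown for Axin2 and Ascl2, the pair of members whose levels moved together most closely, as the 250 bases before the start of each gene. Both stretches come from RefSeq on GRCm38.p6 and are written 5′ to 3′ on the strand of the gene. The Axin2 stretch lies on the plus strand at chr11:108920099-108920348, and the Ascl2 stretch on the minus strand at chr7:142969265-142969514.
Axin2: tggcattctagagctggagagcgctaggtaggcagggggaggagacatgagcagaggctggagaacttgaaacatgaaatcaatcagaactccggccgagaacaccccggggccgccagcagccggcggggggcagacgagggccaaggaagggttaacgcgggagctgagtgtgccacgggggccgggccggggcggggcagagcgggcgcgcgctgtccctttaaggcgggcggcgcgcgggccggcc
Ascl2: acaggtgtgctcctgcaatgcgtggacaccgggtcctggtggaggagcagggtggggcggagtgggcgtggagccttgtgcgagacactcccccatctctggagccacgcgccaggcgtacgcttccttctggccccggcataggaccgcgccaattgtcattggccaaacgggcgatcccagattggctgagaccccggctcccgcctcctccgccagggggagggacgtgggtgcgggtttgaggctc
They held 69.2% and 67.6% G and C. The TCF/LEF core was searched as the letters CTTTGNN, of which AA, AT, TA and TT were accepted for the last bases, on both strands of the 300-base RefSeq windows around gene starts. They were found in 0 of the 5 windows of the 4 members that had one (Ascl2, Axin2, Lrig1 and Rnf43), against 16.9% of 32851 windows of all genes, and nothing is capitalized for that reason.

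The libraries held 4344988 to 19993833 counts (median 15989625). At these depths 3 counts amounted to between 0.15 and 0.69 CPM, the reads of a gene relative to all reads counted in its library. The knocked-out gene had a lower median in HO than in WT in every line, with 14.7 against 27.2 CPM for Nckap1l, 22.01 against 33.9 for Dock2, 0.576 against 3.20 for Gpsm3 and 3.18 against 3.66 for Dok3. The ranges of HO and WT overlapped in each case, so these counts do not check each label by itself. For Dok3 the highest level of the line was in a library labelled HO, replicate 17 at 40.4 CPM, against at most 26.8 CPM in WT. The small difference of the Dok3 medians therefore does not show that these labels separate knockouts from controls. In GPSM3, however, Gpsm3 was at 0.246 to 0.923 CPM in 18 of the 20 HO libraries and at 1.99 CPM or more in 19 of the 20 WT libraries. The libraries labelled HO replicates 1 and 11 were at 2.74 and 3.52 CPM and the library labelled WT replicate 11 at 0.720 CPM, so that these 3 went against their label. Results of GPSM3 were also computed without them, which was decided after the values were seen. The 8 skin keratinocyte markers summed to over 100 CPM in 32 of the 160 samples, 15 of them in HEM1, 5 in DOCK2, 3 in GPSM3 and 9 in Dok3, and reached 14060 CPM. Sex-linked genes went against the label in 5 samples, all in Dok3, without which 0 members were again called for knockout and 7 lower and 1 higher with the inflammation score described later. Of all 17584 genes tested in that subset, 0 were called for knockout, and 5487 were lower and 5390 higher with the score.

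A group of 4 libraries of GPSM3 stood apart from all other samples. They are HO replicates 6, 9 and 10 and WT replicate 9, and they were picked out by the 10 proliferation genes, which summed to between 96.2 and 206.5 CPM in them and to at least 390.9 CPM in every other sample. Their values for the members are given after the levels by group, and the knockout, slope, line and pair results were also computed without them.

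Levels are CPM scaled by trimmed mean of M values (TMM), given as lowest, median and highest sample. Per kilobase of exon, the median over 160 samples ran from 31.5 CPM for Lrig1, an inhibitor of ERBB receptors, and 24.3 for Sox9, a transcription factor of crypt progenitors, through 11.1 for Myc, 9.94 for Rnf43, 7.40 for Axin2, 5.37 for Smoc2 and 4.64 for Znrf3, to 2.21 for Ascl2 and 1.23 for Lgr5. The range of each gene overlapped that of its neighbour in this order.

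Coordinates are those of GRCm38. Among the receptors and their ligases, Lgr5 (chr10:115450311-115587780, minus strand), the R-spondin receptor that marks crypt base stem cells, ran from 1.62 through 14.1 to 29.3 CPM in HEM1. Its range was 1.31, 14.8 and 30.3 CPM in DOCK2, 0.364, 11.6 and 25.7 in GPSM3 and 0.650, 11.5 and 27.8 in Dok3. The medians of the 4 lines were thus close together while samples within a line differed many-fold. Rnf43 (chr11:87662722-87735539, plus strand) varied less, with 29.6, 68.7 and 100.2 CPM in HEM1, 37.5, 65.4 and 83.8 in DOCK2, 32.7, 62.8 and 89.7 in GPSM3 and 21.4, 65.3 and 115.6 in Dok3. Znrf3 (chr11:5276324-5444847, minus strand), its paralog, ran over all 160 samples from 17.9 through 36.7 to 56.2 CPM.

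Ascl2 (chr7:142966829-142969264, minus strand), the transcription factor that maintains crypt base stem cells, had few counts in every line. It ran from 0.375 through 2.801 to 6.18 CPM in HEM1, and from 0.438 through 4.30 to 7.89 in DOCK2. In GPSM3 it ran from 0 through 3.44 to 7.60 CPM, and in Dok3 from 0.746 through 3.91 to 9.58. It was counted 3 times or fewer in 4 samples, and there its level is not measured beyond that. Axin2 (chr11:108920349-108950783, plus strand), the scaffold that feeds back on Wnt signalling by promoting beta-catenin breakdown, had medians of 40.7, 42.0, 38.1 and 42.3 CPM in HEM1, DOCK2, GPSM3 and Dok3, and a range over all samples of 6.99 to 63.7 CPM. Smoc2 (chr17:14279506-14404790, plus strand), a secreted matrix protein of the crypt base, ran from 10.6 through 37.3 to 75.1 CPM over the 160 samples.

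Sox9 (chr11:112782224-112787760, plus strand) ran from 37.9 through 100.4 to 185.3 CPM and Lrig1 (chr6:94604529-94700158, minus strand) from 84.6 through 176.1 to 234.2 CPM. Myc (chr15:61985391-61990374, plus strand), the growth regulator, had medians of 45.8 CPM in HEM1, 27.9 in DOCK2, 25.03 in GPSM3 and 32.2 in Dok3. It was highest in HEM1, where it reached 103.2 CPM, while no other line exceeded 61.3 CPM.

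**Figure D1:**
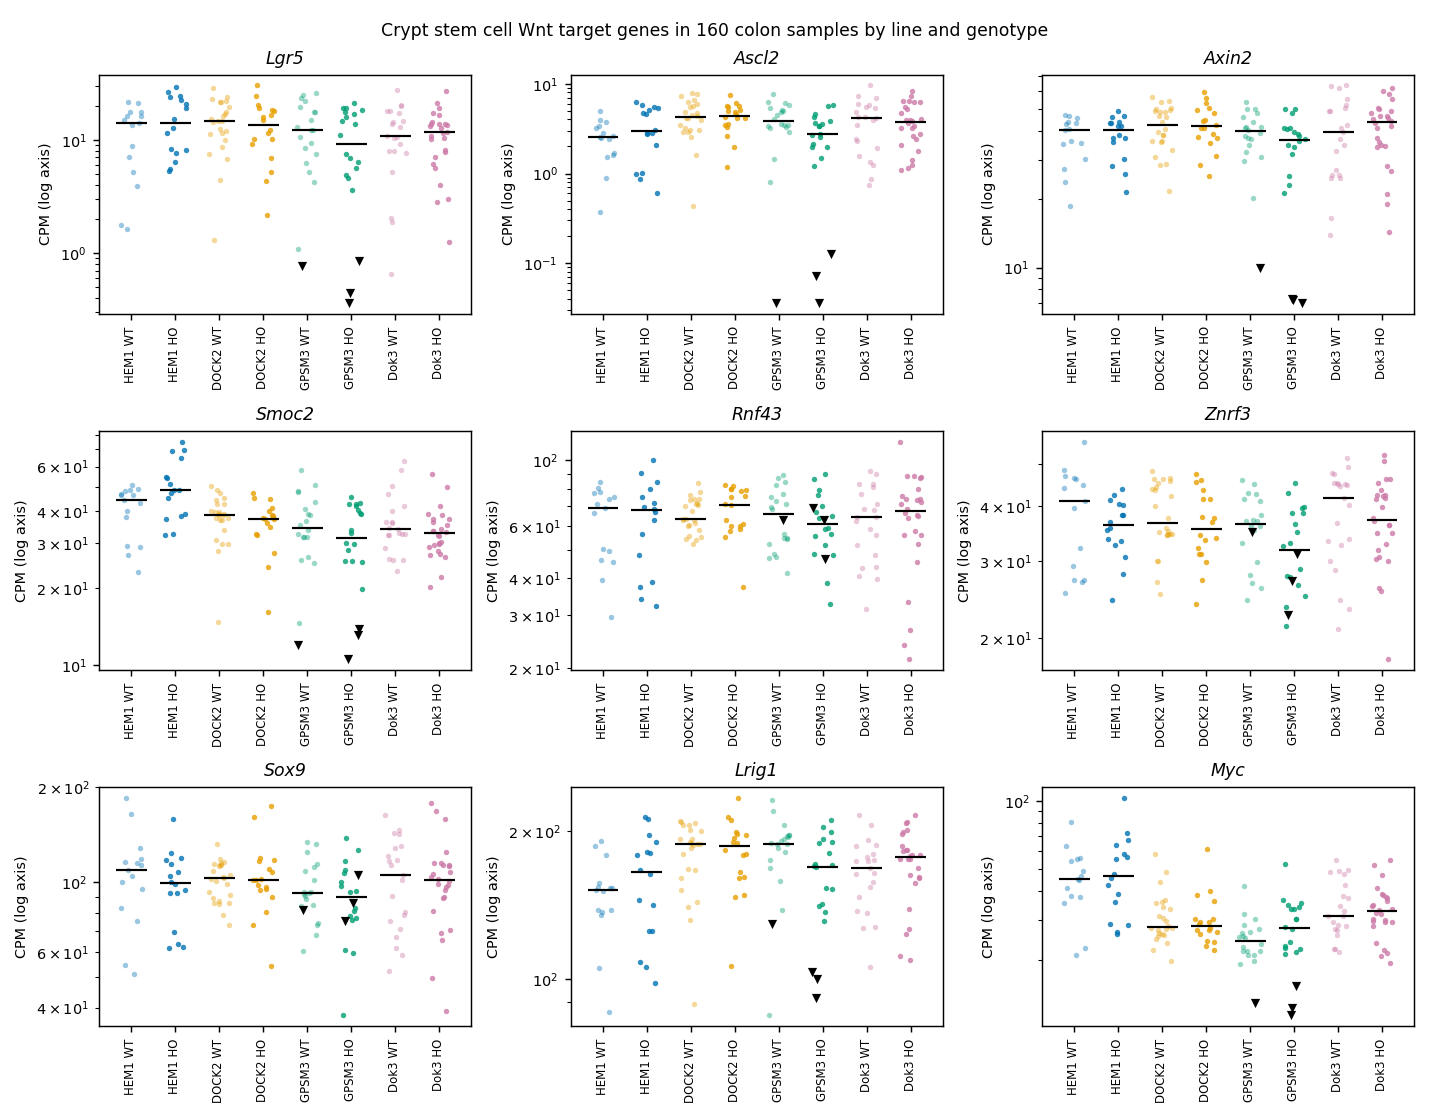
Level of each of the 9 genes in CPM on a log axis, with 1 point per sample, 8 groups of line and genotype, and a bar at the median of each group; values of 0 are drawn below the lowest value above 0. Black triangles are the 4 GPSM3 libraries low in proliferation genes, which lie below the other samples for Ascl2, Axin2, Smoc2 and Myc and within them for Rnf43, Znrf3 and Sox9.

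In the 4 libraries that stood apart, Lgr5 was at 0.364, 0.440 and 0.849 CPM in HO replicates 6, 9 and 10 and at 0.767 CPM in WT replicate 9, and 1 of the other samples lay below the highest of these. Ascl2 was at 0.0728, 0.126 and 0 CPM in the same HO replicates and at 0 in the WT replicate, whereas the lowest other sample had 0.375 CPM. Axin2 lay between 6.99 and 9.97 CPM against at least 13.9 elsewhere, Smoc2 between 10.6 and 13.8 against at least 14.6, and Myc between 11.4 and 15.3 against at least 19.1. For these 4 genes the libraries did not overlap with the rest of the series. The share of all genes that separate in the same way was not computed, so it is not known whether this is particular to the members. Rnf43, at 46.4 to 68.9 CPM, Znrf3, at 22.5 to 34.9, and Sox9, at 75.5 to 105.8, stayed within the range of the other GPSM3 samples. Lrig1 lay between 91.7 and 129.7 CPM, and 17 of the other samples were below the upper of these values. Colonocyte markers summed to between 6963 and 9501 CPM in these libraries and had a median of 4877 CPM in the other 36 GPSM3 samples, and goblet cell markers to between 20780 and 41760 CPM with a median of 15060 in the others. Their epithelial score, the mean log2 CPM of 11 epithelial genes, ran from 8.87 to 9.16 and lay within that of the other GPSM3 samples (8.07 to 9.27). Skin markers summed to at most 8.69 CPM and total counts to between 14629933 and 17587411, both within the range of the other GPSM3 samples. The inflammation score was 0.67, 0.75 and 0.89 in 3 of them and 4.55 in HO replicate 10. Because the libraries were found by looking at the data, these differences are a description without a test.

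The knockouts were compared with their own wild-type controls to ask whether loss of the regulator moved the crypt genes. None of the 9 was called in any line by the quasi-likelihood test of edgeR with Benjamini-Hochberg adjustment over all genes. Samples with and without DSS could not be separated in these fits. The standard errors of Lgr5 and Ascl2 in GPSM3 were 0.377 and 0.356 on the log2 scale. After adjustment over all genes, changes well above that size could be missed too. Of all genes, 0% of 17947 were called in HEM1, 0.0340% of 17648 in DOCK2, 0.00569% of 17560 in GPSM3 and 0% of 17612 in Dok3, and at an unadjusted p under 0.05 there were 807, 900, 854 and 386 genes. DESeq2 called 21, 76, 4 and 3 genes in the same order and limma-voom 0, 0, 1 and 0, none of them a member. Median HO minus WT differences of the members on the log2 scale were 0.04 in HEM1, -0.01 in DOCK2, -0.17 in GPSM3 and -0.02 in Dok3, beside 0.01, -0.00, 0.00 and 0 over all genes. In GPSM3 the median was -0.096 without the 4 libraries low in proliferation genes and -0.17 without the 3 at odds with their Gpsm3 label, with 0 members called in either case, beside 1 and 2 of all genes.

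Both differences over 0.35 in size were in the members of lowest level per length. Lgr5 in HEM1 ran from 5.29 through 13.97 to 29.3 CPM in HO and from 1.62 through 14.1 to 21.6 CPM in WT, a log2 difference of 0.39 with a standard error (SE) of 0.37. Ascl2 in GPSM3 ran from 0 through 2.74 to 5.76 CPM in HO and from 0 through 3.83 to 7.60 in WT, a log2 difference of -0.53 (SE 0.36), and -0.38 without the 4 libraries low in proliferation genes. The groups overlapped in each case. Smoc2 in HEM1 had 32.4, 48.8 and 75.1 CPM in HO and 23.2, 44.5 and 50.9 in WT. Its log2 difference of 0.33 (SE 0.14) had an edgeR adjusted p of 0.9996.

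Each member was next set against inflammation across samples. The inflammation score is the mean log2 CPM of 12 genes of neutrophil and cytokine inflammation, none of them a member, and 1 unit is a doubling of those genes on average. It ran from -0.18 to 7.47 in HEM1, from -0.38 to 7.13 in DOCK2, from -0.58 to 6.56 in GPSM3 and from -0.71 to 9.05 in Dok3, with no gap that would split a line into clusters. The score and the members came from the same libraries.

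Most of the crypt genes were lower where inflammation genes were higher. With genotype, and sex where it varied, in the fit, edgeR called 6 of the 9 members lower and 0 higher in HEM1, 7 lower and 1 higher in DOCK2, 5 lower and 0 higher in GPSM3, and 7 lower and 1 higher in Dok3. Of all genes, 24.6% were called lower and 23.4% higher in HEM1, 27.0% and 28.4% in DOCK2, 26% and 27.8% in GPSM3, and 30.4% and 33.1% in Dok3. The median slope of the members was -0.093, -0.11, -0.11 and -0.14 log2 per unit of score in the same order, against a median of all genes between -0.001 and 0.002.

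Lgr5 fell steeply. In HEM1 the 3 samples of lowest score had 20.6, 21.1 and 29.3 CPM and the 3 of highest score 1.76, 3.95 and 5.50 CPM. In DOCK2 these values were 24.4, 28.5 and 21.7 CPM against 1.31, 6.90 and 4.36. In GPSM3 they were 13.1, 15.9 and 12.1 CPM against 3.62, 4.25 and 4.90, and in Dok3 16.5, 19.1 and 10.8 CPM against 1.24, 0.650 and 8.12. These 3 and 3 samples did not overlap in any line, and the share of all genes of which this is true was not computed. Samples between the ends did not all follow. In GPSM3, 3 of the libraries low in proliferation genes had 0.364, 0.440 and 0.767 CPM at scores of 0.67, 0.75 and 0.89. These values lay below those of the 3 samples of highest score. The slopes were -0.36 (SE 0.051) log2 per unit in HEM1, -0.41 (SE 0.053) in DOCK2, -0.32 (SE 0.085) in GPSM3 and -0.24 (SE 0.050) in Dok3, with edgeR adjusted p of 1.42e-06, 1.77e-08, 0.00181 and 6.22e-05.

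Ascl2 fell by 0.30 log2 per unit in HEM1 (SE 0.049), by 0.30 in DOCK2 (SE 0.050) and by 0.31 in Dok3 (SE 0.031), and was called in these 3 lines. In GPSM3 the slope was -0.13 (SE 0.081) with an edgeR adjusted p of 0.189. Without the 4 libraries low in proliferation genes it was also -0.13, with an adjusted p of 0.0172. Axin2 was called lower in all 4 lines, at -0.11 (SE 0.020), -0.15 (SE 0.019), -0.11 (SE 0.046) and -0.19 (SE 0.019) in HEM1, DOCK2, GPSM3 and Dok3. Its GPSM3 call had an edgeR adjusted p of 0.0461. That call was lost with limma-voom (0.101), without a filter on low counts (0.0661), with the skin score as a covariate (0.0523), without samples holding skin RNA (0.0579), without the sample of highest score (0.0669) and without the 3 libraries at odds with their Gpsm3 label (0.0605). Leaving out the 4 low libraries gave an edgeR adjusted p of 7.77e-06. These libraries hold the lowest Ascl2 and Axin2 values of the series, 3 of them at scores of 0.67 to 0.89. They were left out after the values were seen, so fits of GPSM3 without them are no independent support for a slope.

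Rnf43 and Znrf3, the ubiquitin ligases, had small standard errors. Rnf43 was called lower in every line, with slopes of -0.19 (SE 0.020), -0.097 (SE 0.016), -0.14 (SE 0.015) and -0.17 (SE 0.019) in HEM1, DOCK2, GPSM3 and Dok3. Znrf3 was called lower in every line too, at -0.093, -0.13, -0.12 and -0.11, with SE between 0.013 and 0.018. At the highest score of Dok3, HO replicate 17 had 21.4 CPM of Rnf43 and 17.9 CPM of Znrf3, the lowest values of both genes in the series. The epithelial score of this library was 7.37, against a median of 8.85 in Dok3, and its part in these values was not tested.

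Sox9 was called lower in GPSM3 (-0.11, SE 0.023) and Dok3 (-0.14, SE 0.021). Its slope was -0.079 (SE 0.034) in HEM1, with an edgeR adjusted p of 0.0528 (called by DESeq2 and limma-voom), and -0.012 (SE 0.028) in DOCK2. Lrig1 was called lower in HEM1 (-0.079), DOCK2 (-0.11) and Dok3 (-0.072), while in GPSM3 its slope was -0.028 (SE 0.023). In HEM1 its call was lost among males alone and without the samples holding skin RNA, where the adjusted p was 0.105. Smoc2 was called in 1 line, lower in DOCK2, at -0.10 (SE 0.030). That call rested on WT replicate 13, the sample of highest score, without which the slope was -0.059 and the adjusted p 0.110.

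Myc had positive slopes. They were 0.092 (SE 0.040) in HEM1, 0.10 (SE 0.029) in DOCK2, 0.060 (SE 0.032) in GPSM3 and 0.074 (SE 0.021) in Dok3, called higher in DOCK2 and Dok3 by edgeR and also in HEM1 by DESeq2 and limma-voom. The DOCK2 call was lost without WT replicate 13, with a slope of 0.060 and an adjusted p of 0.138. The Dok3 call was lost without samples holding skin RNA, with an adjusted p of 0.0648, and with the epithelial or skin score as a covariate. In GPSM3 the gene was called higher once the 4 low libraries were left out, with a slope of 0.063 and an adjusted p of 0.0218, and then 7 of the 9 members were lower and 1 higher in that line, Smoc2 (-0.069, SE 0.029, adjusted p 0.0430) among the lower. Of all 17603 genes in that fit, 4617 were lower and 5091 higher. The Lgr5 slope of GPSM3 was -0.32 (SE 0.053, edgeR adjusted p 4.17e-06) without the 4 libraries. Without the 3 libraries at odds with their Gpsm3 label it was -0.31 (SE 0.087, adjusted p 0.00260), and 4 members were lower and 0 higher, beside 4695 lower and 4656 higher of all 17525 genes.

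**Figure D2:**
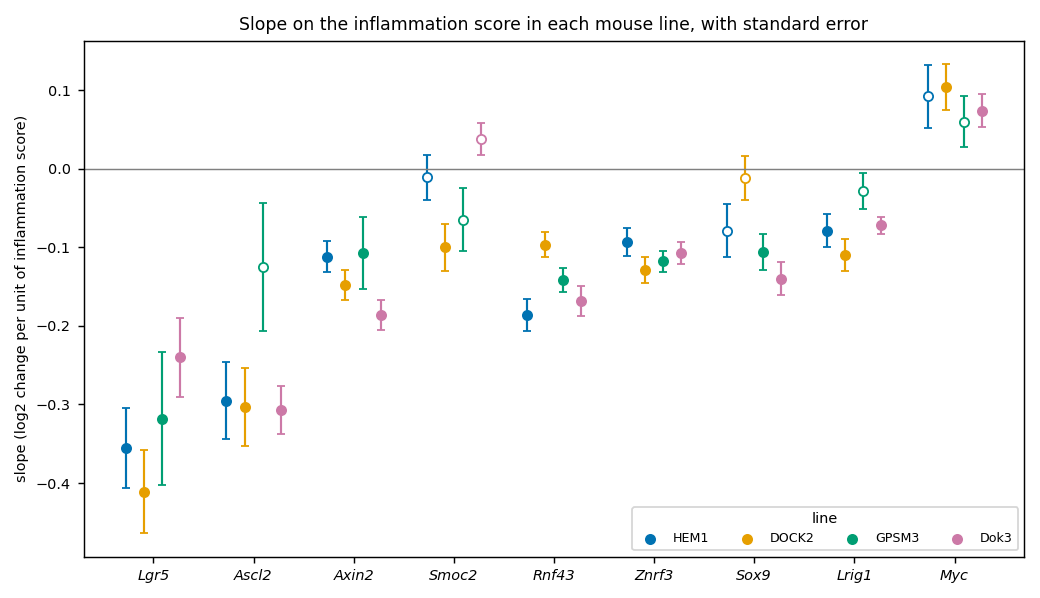
Slope of each gene on the inflammation score in the 4 lines, in log2 change per unit of score, with bars of 1 SE; filled points passed an adjusted p of 0.05 and open points did not. Lgr5 and Ascl2 have the most negative slopes in HEM1, DOCK2 and Dok3, down to -0.41, and Lgr5 and Rnf43 in GPSM3, and Myc lies above 0 in each line.

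**Figure D3:**
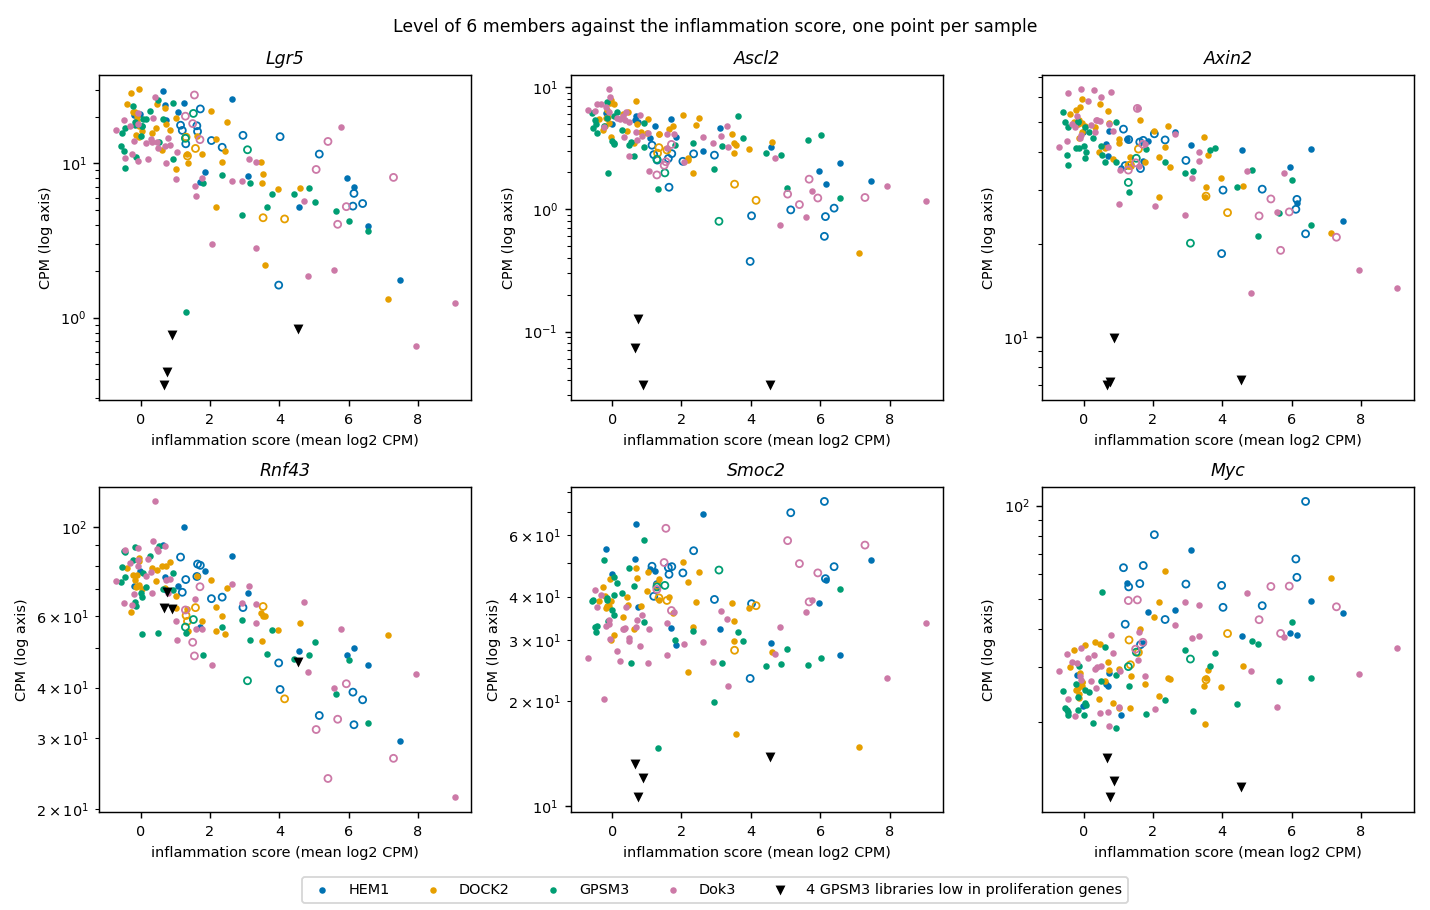
CPM on a log axis against the inflammation score for 6 of the genes, with 1 point per sample coloured by line, open circles for samples with over 100 CPM of skin markers and black triangles for the 4 GPSM3 libraries low in proliferation genes; values of 0 are drawn below the lowest value above 0. Lgr5, Ascl2, Axin2 and Rnf43 decline with the score, Smoc2 is scattered, and Myc drifts upward.

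RNA of other tissues moved with the score. Skin markers rose with it by rank in each line, with Spearman's rho of 0.52 in HEM1, 0.57 in DOCK2, 0.45 in GPSM3 and 0.65 in Dok3 and permutation p of 0.0029, 0.00015, 0.0042 and 1e-05, the last being the smallest that 100000 permutations can give; adjusted over the 8 relations computed they were 0.0067, 0.0006, 0.0067 and 8e-05. Pearson's r was lower, at 0.22, 0.33, 0.21 and 0.42, with adjusted permutation p of 0.26, 0.088, 0.26 and 0.014, and became 0.33, 0.40, 0.17 and 0.54 without the 2 samples farthest from the median score. The epithelial score declined with inflammation in Dok3, with r = -0.51 and rho = -0.42 (permutation p of 0.00045 and 0.0036, adjusted 0.0036 and 0.0067) and r = -0.45 without 2 samples. In HEM1, DOCK2 and GPSM3 its r was -0.33, 0.23 and 0.03, with adjusted permutation p of 0.13, 0.24 and 0.87. With the epithelial score as a covariate the Lgr5 slope was -0.37, -0.41, -0.31 and -0.31 in HEM1, DOCK2, GPSM3 and Dok3, and without samples holding skin RNA it was -0.34, -0.35, -0.32 and -0.31, called each time. The part of skin and epithelial content in the other slopes was not tested beyond these fits. Leukocyte markers were called higher with the score for 6, 5, 7 and 5 of 7 genes in HEM1, DOCK2, GPSM3 and Dok3, with Itgam at 0.46, 0.49, 0.47 and 0.52. Fibroblast markers were higher for 6 of 6 in each line. Smooth muscle markers were lower for 3, 1, 6 and 1 of 6, with Myh11 at -0.12, -0.11, -0.21 and -0.069. The part of these cell types in the members' slopes was not tested.

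The calls depended on which inflammation genes made up the score. Against the mean of 9 interferon-gamma response genes, 1 member was called in HEM1 (Znrf3), 1 in DOCK2 (Axin2), 2 in GPSM3 (Rnf43 and Znrf3) and 8 in Dok3, and of all genes 4737, 2513, 4626 and 8287 were called, where the main score called 8607, 9764, 9444 and 11195.

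Whether the slopes depended on genotype or line was tested directly. None of the 9 slopes was called different between HO and WT in any line, beside 0%, 0.0113%, 0% and 0.00568% of all genes in HEM1, DOCK2, GPSM3 and Dok3 by edgeR, with 3511, 1134, 632 and 642 genes at an unadjusted p under 0.05 and 0 called in each line by limma-voom. The lowest unadjusted p among the members were those of Lgr5 in Dok3 (HO minus WT slope 0.24, SE 0.099, edgeR adjusted p 0.942) and Ascl2 in HEM1 (-0.21, SE 0.089, adjusted p 0.207). Between lines, 0 of 9 slopes were called different beside 8.45% of 20941 genes, 5597 of which had an unadjusted p under 0.05, and limma-voom called 0 members. The smallest edgeR adjusted p among the members were 0.0730 for Smoc2 and 0.0807 for Sox9. Without the 4 libraries low in proliferation genes, Smoc2 (adjusted p 0.0233) and Ascl2 (0.0246) were called, and without samples holding skin RNA Sox9 was (0.0368). Of all genes, 2419 of 20929 were called in the former fit and 1789 of 21431 in the latter.

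The wild-type samples alone were compared between lines. Myc differed, with WT medians of 45.1 CPM in HEM1, 27.9 in DOCK2, 24.2 in GPSM3 and 31.1 in Dok3 and ranges of 20.99 to 80.6, 19.6 to 58.2, 12.9 to 42.2 and 21.5 to 54.9 CPM (edgeR adjusted p 2.36e-05). It stayed called with the inflammation score as a covariate and without samples holding skin RNA, where the adjusted p was 0.0262. Lrig1 had WT medians of 152.2, 188.5, 188.9 and 168.4 CPM and an adjusted p of 0.0255, which became 0.248 with the inflammation score as a covariate and 0.197 without samples holding skin RNA. None of the other 7 members was called, but with the inflammation score as a covariate Znrf3 (adjusted p 0.00333) and Sox9 (0.0368) were. Of all 19060 genes, 41.8% were called, and 6371 genes with that covariate. The contrast of Dok3, the 129 line, with the mean of the C57BL6/J lines called 0 of 9 members beside 16.8% of genes, where 5707 genes had an unadjusted p under 0.05 and limma-voom called 0 members.

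Sex could be compared in HEM1 and DOCK2. In DOCK2, Axin2 ran from 25.4 through 48.9 to 59.4 CPM in 20 female and from 21.8 through 38.1 to 50.5 CPM in 22 male samples, a log2 difference of 0.30 (SE 0.091, edgeR adjusted p 0.0307), and was the only member called of 9, where 4.26% of genes were called higher in females. With the inflammation score as a covariate the difference was 0.15 with an adjusted p of 0.115, and Myc was called instead (0.34, adjusted p 0.0211). In HEM1, 0 of 9 members were called beside 0.106% of genes higher in females, where 2823 genes had an unadjusted p under 0.05 and limma-voom called 0 members.

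Members were then compared with each other over the 160 samples, after removal of the mean of each line, genotype and sex, as 36 pairs of log2 CPM. Ascl2 and Axin2, whose promoters are printed above, were the closest pair, with Pearson's r = 0.88 and Spearman's rho = 0.79 (both permutation p 1e-05, the smallest that the permutations can give, and 1.7e-05 for r adjusted over the pairs). Leaving out the 2 samples farthest from the median of Ascl2 gave 0.85, and the r within HEM1, DOCK2, GPSM3 and Dok3 was 0.81, 0.86, 0.95 and 0.80. Without the 4 libraries low in proliferation genes it was 0.81. Lgr5 and Axin2 had r = 0.79 and rho = 0.68, Lgr5 and Znrf3 0.70 and 0.76, and Rnf43 and Sox9 0.68 and 0.55, each with the same permutation p. Members of a pair share library and depth, and most also share a slope on the score. Smoc2 and Ascl2 had r = 0.37 and rho = 0.13 (permutation p 0.00013 and 0.11), and r = 0.25 without the 2 samples farthest out. By line their r was 0.63 in DOCK2 and 0.73 in GPSM3, but -0.03 in HEM1 and -0.35 in Dok3, and in GPSM3 it was 0.25 without the 4 low libraries. Over all lines their r was 0.11 without the low libraries and 0.58 without samples holding skin RNA. Lrig1 and Myc had r = -0.29 and rho = -0.37 (permutation p 0.00089 and 2e-05), and r was negative in HEM1 (-0.59), DOCK2 (-0.52) and Dok3 (-0.49), whereas in GPSM3 the r was 0.26 and became -0.40 without the 4 low libraries. Over all lines the r of Lrig1 and Myc was -0.49 without the low libraries, but only -0.12 without samples holding skin RNA.

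**Figure D4:**
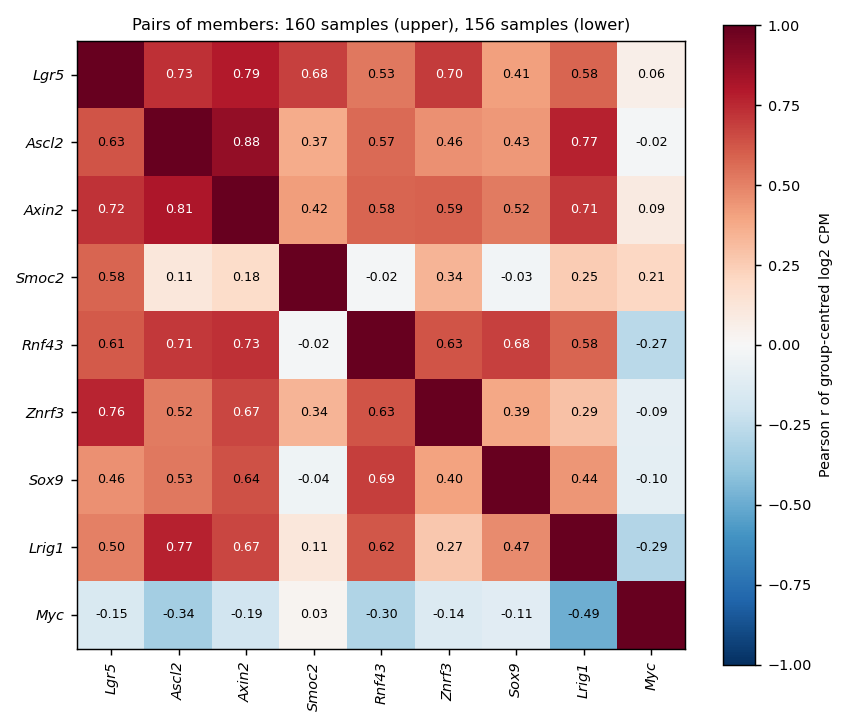
Pearson's r between each pair of genes over group-centred log2 CPM, from 160 samples above the diagonal and from the samples left without the 4 GPSM3 libraries below it. Ascl2 with Axin2 is the highest pair at 0.88, and the pairs of Myc run from -0.29 to 0.21 above the diagonal.

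For each member the genes most like it among 17066 tested in all lines are given by r alone. Lgr5 was closest to A930009A15Rik (0.82), which overlaps it on the opposite strand, so that their reads can be told apart only if the counting used strand, which the sources used here do not state. It was next to 9330162012Rik (0.80) and Axin2 (0.79). Rnf43 was closest to 1110028F11Rik (0.91), which overlaps it on the same strand, so that strand could not tell reads of a shared stretch apart. Next to Rnf43 were Ppp1r9a (0.88) and Zfp704 (0.87). Axin2 was followed by Mlxipl (0.82) and Cdo1 (0.81) after Ascl2, and Ascl2 by Eldr (0.79) and 4933406C10Rik (0.79) after Axin2. Smoc2 was closest to Lgr5 (0.68), 9330162012Rik (0.64) and Smo (0.64), Znrf3 to Tmem132c (0.89), Fam184b (0.87) and Gid4 (0.86), and Sox9 to Dyrk2 (0.72), Hnf4aos (0.71) and Arhgap27 (0.70). Lrig1 was closest to Mecr (0.82), Cenpv (0.81) and Stra6l (0.81), and Myc to Wdr43 (0.78), Rrp1b (0.77) and Grwd1 (0.77).

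Other genes of the Wnt pathway were read from lists chosen like the members. Of all genes, 24.6% to 30.4% were called lower and 23.4% to 33.1% higher with the score, depending on the line. Whether any list here or below differed from these shares was not tested. Of 9 further Wnt targets tested, 3 were called higher and 0 lower with the score in HEM1, 5 and 1 in DOCK2, 4 and 0 in GPSM3, and 4 and 1 in Dok3. Apcdd1, a Wnt antagonist, had slopes of 0.27, 0.37, 0.16 and 0.40 in HEM1, DOCK2, GPSM3 and Dok3 and was called in DOCK2 and Dok3, while the EPH receptor Ephb3 was called in Dok3 alone, at -0.069. Of 9 further crypt base genes, 2 were higher and 3 lower in HEM1, 4 and 3 in DOCK2, 2 and 2 in GPSM3, and 3 and 4 in Dok3. Counts of this size do not set the list apart from all genes. The potassium channel gene Kcnq1 was lower in each line, at -0.21, -0.13, -0.10 and -0.18, and Phlda1 higher, at 0.26, 0.32, 0.14 and 0.17.

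Among 16 receptors and mediators, 1 was higher and 4 lower in HEM1, 5 and 5 in DOCK2, 2 and 6 in GPSM3, and 2 and 7 in Dok3. By themselves these counts do not set the receptors and mediators apart from all genes, whose shares are given above. Tcf7l2, the TCF factor that carries the signal to DNA in the intestine, was lower in every line, at -0.15, -0.085, -0.095 and -0.18, and the co-receptor Lrp5 was higher, by at most 0.11. Among Wnt and R-spondin ligands, 3 of 9 were higher in HEM1, 5 of 8 in DOCK2, 5 of 8 in GPSM3 and 6 of 8 in Dok3, with none lower. Wnt4 had slopes of 0.20, 0.39, 0.21 and 0.28 and was called in DOCK2, GPSM3 and Dok3, and Wnt2b was called in none. Fibroblast markers moved with the ligands, as given above, and their part was not tested.

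Proliferation genes were higher with the score, 6 of 10 in HEM1, 7 in DOCK2, 9 in GPSM3 and 9 in Dok3, with none lower. The cyclin Ccnb1 had slopes of 0.13, 0.13, 0.21 and 0.11. Genes of the fetal-like repair state were higher too, 6 of 8 in HEM1, 6 of 7 in DOCK2, 5 of 7 in GPSM3 and 6 of 7 in Dok3, and Ereg, an EGF receptor ligand, had slopes of 0.66, 0.65, 0.61 and 0.56. Most colonocyte markers were lower, 6 of 8 in each line, led by the water channel Aqp8 at -0.53, -0.36, -0.54 and -0.48, while the keratin gene Krt20 was called higher in DOCK2 (0.12). Goblet cell genes were lower for 4, 3, 5 and 4 of 7, led by Clca1 at -0.34, -0.27, -0.43 and -0.45, and in DOCK2 Spink4 (0.21) and Agr2 (0.087) were higher. Epithelial genes were lower for 7 of 11 in HEM1 and 8 in Dok3, but for 1 each in DOCK2 and GPSM3, where 3 and 2 were higher.

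**Figure D5:**
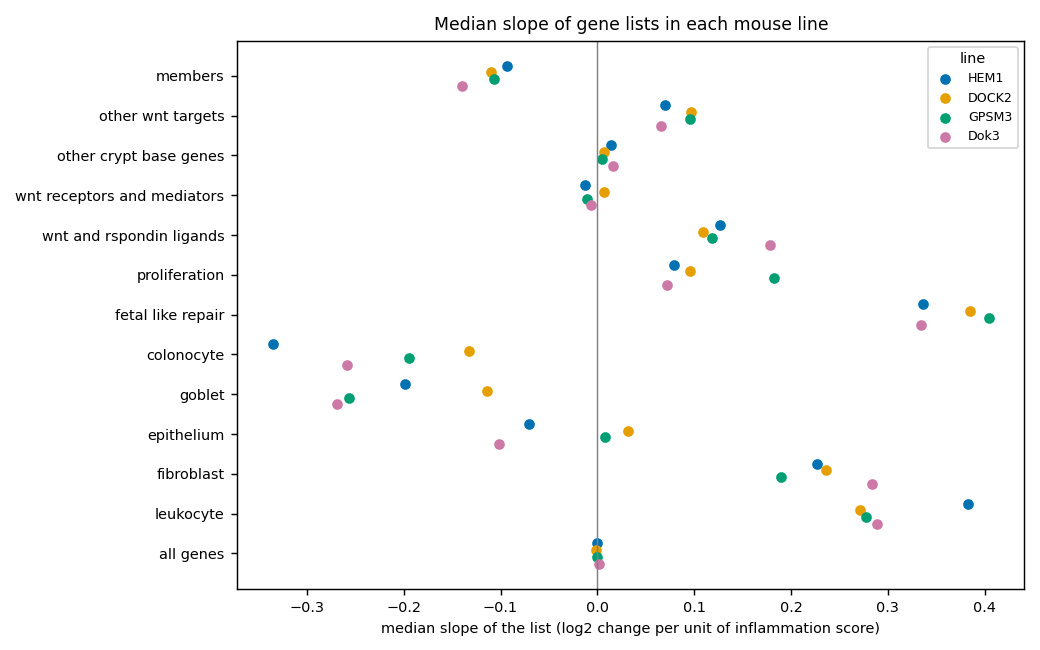
Median slope on the inflammation score over the tested genes of each list, in log2 change per unit of score, with 1 point per line; the bottom row is the median of all genes. The median of the 9 members lies below 0 in each line, as do those of the colonocyte and goblet lists. The medians of the ligand, proliferation, repair, fibroblast and leukocyte lists lie above it.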

How the data were processed

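RNA of 160 distal colon samples was prepared with a stranded, rRNA-depleted kit and sequenced as single 100-base reads. The authors mapped reads to mm10 with STAR, counted them on genes with featureCounts of Subread and deposited raw counts per gene and sample without normalization; tool versions and the strand setting are not given in the sources used here. Of 39179 Ensembl IDs, 37607 (96.0%) matched a symbol in a table of gene names, and positions came from GENCODE on GRCm38. Samples were grouped by the line and genotype in the labels, which do not state that each is a separate animal, so p-values measure the spread between samples. No pair of libraries of a group agreed within sampling noise.

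Levels are TMM-scaled CPM, on the log2 scale with a prior count of 2. Tests used the quasi-likelihood F test of edgeR 4.0.16 in R 4.3.3 after filterByExpr, with Benjamini-Hochberg adjustment over all genes and a threshold of 0.05; an SE is the absolute log2 value over the root of F. Alternatives used limma-voom 3.58.1, DESeq2 1.42.0, no filter, other covariates and subsets. Fits were tested on simulated data. Correlations used 100000 permutations in scipy 1.17.1. The members and gene lists were chosen with earlier results of these data known. From other lists the genes of most negative and most positive median slope are named, and for each member the 3 of highest r.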

Additional observations from a re-analysis of the deposited data

Results flagged for a closer look

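The highest and lowest samples were compared with their neighbours within 12 subgroups of line, genotype, sex and run of sample numbers, holding 4 to 10 samples. In 11 of 108 gene-by-subgroup sets the gap, as a share of the range, was above Dixon's critical value. About 1 in 20 sets of normal, independent values would pass it. CPM of genes that move together, in subgroups of mixed inflammation, need not follow that rate.

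Myc was high in DOCK2 HO replicate 18 (61.3 CPM, the next being 40.0) and in GPSM3 WT replicate 14 (42.2 CPM, the next 28.3), whose inflammation scores were 2.34 and 6.02. Ascl2 was high in Dok3 WT replicate 16 (9.58 CPM, the next 4.14; score -0.08) and low in HEM1 HO replicate 14 (3.03 CPM, the next 5.34). Smoc2 was high in Dok3 WT replicate 19 (62.9 CPM, the next 41.9) and in HEM1 WT replicate 10 (50.9 CPM, the next 29.4). In the latter sample, which had the highest score of its line at 7.47, Axin2 was low at 23.9 CPM against 40.6 for the next. Lgr5 was low in HEM1 WT replicate 8 (7.02 CPM, the next 14.1; score 6.16). Lrig1 was low in Dok3 HO replicate 23 (138.9 CPM, the next 175.7), in HEM1 HO replicate 16 (167.2 CPM, the next 179.4) and in HEM1 WT replicate 3 (105.7 CPM, the next 138.3). Of these samples, Dok3 HO replicate 23, Dok3 WT replicate 19 and HEM1 WT replicate 3 held 2595, 9679 and 5329 CPM of skin markers. The part of skin RNA in these values was not tested.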

How the results depend on the processing

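No member was called for knockout under any alternative, and no called value changed sign. With the interferon-gamma score, the members called against inflammation were 1 in HEM1, 1 in DOCK2 and 2 in GPSM3, with 4737, 2513 and 4626 of all genes. Without the 4 libraries low in proliferation genes, an alternative chosen after seeing the data like those on the skin score, the highest-scored sample and the libraries at odds with their label, 8 members were called in GPSM3 and 2 slopes differed between lines. Of all genes, 9708 of 17603 were called in the former fit and 2419 of 20929 in the latter. Without samples holding skin RNA, 1 slope differed between lines (1789 genes) and 1 member between wild-type lines (4263 genes), and males only gave 1 member (3619 genes). Over the members' slopes, 324 single values under alternatives kept their side of the threshold, 28 lost a call and 8 gained one.

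All genes called for knockout were 0, 6, 1 and 0 in HEM1, DOCK2, GPSM3 and Dok3. DESeq2 gave 21, 76, 4 and 3, and no filter 27, 31, 32 and 15. The epithelial covariate gave 3 in HEM1 and 21 in DOCK2. In DOCK2, limma-voom gave 0, the inflammation covariate 10, males only 1, the skin covariate 24, and samples without skin RNA 79, which gave 2 in GPSM3, as did leaving out the 3 libraries at odds with their Gpsm3 label. The inflammation covariate raised genes differing by sex in HEM1 from 32 to 132. Genes whose slope differed between genotypes were 2 in DOCK2 and 1 in Dok3, and 0 in each with limma-voom, 0 in Dok3 without the 5 samples whose sex-linked genes went against the label, and 4 in DOCK2 without skin RNA. C57BL6/J lines alone gave 405 genes whose slope differed between lines, against 1770. The causes were not tested. No paired analysis was possible because the labels' numbers are serial and shared by no samples of different groups. Ascl2 and Lgr5 are near the counting limit in the shallowest and lowest libraries.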
